A study of Homo sapiens with 6 samples.

Results

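The genes described here make up the S-phase supply line: 38 listed genes for E2F transcription factors, E2F targets, nucleotide supply, the replicative DNA polymerases and the proteins that load, join and package new DNA. They were taken by name, and all 38 were found among the 26967 named genes of the deposited RNA-seq table. The level of a gene is its normalized count, the authors' library-scaled read count summed over its RefSeq transcripts, 97 transcript rows in all for these genes. The values come from 6 libraries of UWB1.289, a long-established line grown from a human ovarian carcinoma and without functional BRCA1. Cells were transduced by lentivirus with a control hairpin (shCTRL, 3 libraries) or a hairpin against HBO1 (shHBO1, 3 libraries), the histone acetyltransferase encoded by KAT7. Both groups had polybrene at 10 µg/mL, and puromycin at 1 to 3 µg/mL from 96 h onwards. The labels give neither the harvest time nor how many hairpins were used, so HBO1 loss and any further action of the hairpin cannot be told apart. They also do not call the replicates separate cultures, so each p-value measures spread among these libraries alone, possibly technical.

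E2F factors bind DNA with a DP partner. In resting cells the retinoblastoma family of pocket proteins holds them silent. Cyclin-dependent kinases, that of cyclin E among them, release the factors. The activator members E2F1, E2F2 and E2F3 then switch on the enzymes that make deoxynucleotides, the polymerases and the clamp machinery. E2F7 and E2F8 act later as repressors. HBO1 is known for acetylating histones near replication origins and genes, in complexes with BRPF or JADE scaffolds. Messages of S-phase genes also vary with the share of cells in that phase. In bulk RNA, fewer cells in S phase and less RNA per cell cannot be told apart.

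Promoter sequence was compared first. The genes were listed by name, in part as E2F targets, so E2F words among them describe the list and are not independent support for it. RefSeq windows of 300 bases, most of each upstream of a gene start (GRCh38.p14), were matched by symbol for 33 of the 38 genes, 46 windows in all. Each was searched on both strands for 4 words of the E2F site, TTTCCCGC, TTTCGCGC, TTTGCCGC and TTTGGCGC. None of these words holds another, and a reverse complement is written as GCGGGAAA, GCGCGAAA, GCGGCAAA or GCGCCAAA. A match was present in 15 of 46 windows (32.6%), against 3.31% of all 35116 windows, and in 14 of 33 genes (42.4%), against 3.99% of 27305 genes. A match describes letters and is not evidence of binding. The windows of 4 genes to which the results return are printed with the matched words in capitals: TYMS and POLE2, which had the lowest fold changes, E2F1, the factor itself, and PCNA, the sliding clamp. They lie at chr18:657403-657702 (+ strand), chr14:49688165-49688464 (- strand), chr20:33686336-33686635 (- strand) and chr20:5126573-5126872 (- strand), and each is read 5′ to 3′ along its gene.
TYMS: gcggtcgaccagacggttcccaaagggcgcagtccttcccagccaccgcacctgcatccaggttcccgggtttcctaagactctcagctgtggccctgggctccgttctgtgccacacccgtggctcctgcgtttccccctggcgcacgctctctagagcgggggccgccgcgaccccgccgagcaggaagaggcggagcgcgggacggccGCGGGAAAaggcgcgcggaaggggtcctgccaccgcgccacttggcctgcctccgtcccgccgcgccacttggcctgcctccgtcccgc
POLE2: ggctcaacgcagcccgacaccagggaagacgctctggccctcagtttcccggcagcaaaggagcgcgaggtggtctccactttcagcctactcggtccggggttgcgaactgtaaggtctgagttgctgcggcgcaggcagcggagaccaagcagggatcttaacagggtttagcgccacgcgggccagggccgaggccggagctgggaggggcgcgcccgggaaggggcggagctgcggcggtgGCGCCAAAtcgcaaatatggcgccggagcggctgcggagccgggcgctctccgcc
E2F1: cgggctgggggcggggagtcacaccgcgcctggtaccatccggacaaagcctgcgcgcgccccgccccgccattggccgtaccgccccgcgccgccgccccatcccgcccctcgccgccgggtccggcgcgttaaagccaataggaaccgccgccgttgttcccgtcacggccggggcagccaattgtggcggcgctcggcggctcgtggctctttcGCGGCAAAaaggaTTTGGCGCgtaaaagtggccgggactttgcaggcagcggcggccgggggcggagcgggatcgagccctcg
PCNA: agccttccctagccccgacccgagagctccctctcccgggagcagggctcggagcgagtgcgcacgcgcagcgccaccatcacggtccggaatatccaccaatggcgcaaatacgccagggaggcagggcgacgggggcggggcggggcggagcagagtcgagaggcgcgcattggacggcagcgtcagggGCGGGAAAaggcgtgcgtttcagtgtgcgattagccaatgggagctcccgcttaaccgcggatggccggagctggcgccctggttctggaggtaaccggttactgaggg
The words begin 39 bases before the start in TYMS, 5 before in POLE2, 33 and 20 before in E2F1, and 59 before in PCNA. E2F1 carries 2 matches, a word on each strand, within a short distance of each other. PCNA has 2 windows, and the printed one was picked because it holds an E2F word, which the other lacks.

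The knockdown target checks the labels. KAT7 stood at 3616, 3952 and 3554 normalized counts in the shCTRL libraries (replicates 1, 2 and 3, the order used throughout) and at 1008, 872 and 784 in the shHBO1 libraries. The groups did not overlap, and the fold change was −2.07 on the log2 scale (SE 0.11, limma adjusted p = 0.00123). Recovered reads ran from 35940400 to 39908703 per library, and each of the 38 genes had between 604 and 20989 reads in every library. Of the 12 ovarian epithelial markers, 12 had reads in every library. The 10 leukocyte markers summed to 713 to 815 normalized counts in shCTRL and 711 to 814 in shHBO1, most of it CD68, with CD4 at 0 in all 6 libraries. The 11 fibroblast and endothelial markers summed to 2023 to 2988 and 2195 to 2716, with PDGFRA and DCN at 0 in all 6 but COL1A1 at 502 to 895 and CDH5 at 674 to 1232. The 7 mesothelial markers summed to 3474 to 4099 and 2823 to 3268, the largest part MSLN, which is also on the epithelial list. Libraries with the same replicate number deviated together from their group means, with correlations of 0.32, 0.19 and 0.48 across 15173 tested genes. Libraries of unlike number ran from −0.40 to 0.21. The highest of these, shCTRL 2 with shHBO1 1, was as high as pair 2, so the pairing is less certain there. A fit with the number as a block is given where it changed a call or a count. For the 38 genes alone the same-number correlations were 0.70, 0.59 and 0.77, and shCTRL 2 with shHBO1 1 had 0.27.

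Levels in the control cells spanned a wide range. Per kilobase of transcript, the 36 genes with a matched length had a median of 1080 normalized counts per kb in shCTRL. Thymidylate synthase TYMS was the most abundant at 11581 ± 580 (SD, n = 3), followed by PCNA at 7802 ± 1040, the salvage enzyme TK1 (thymidine kinase) at 6069 ± 294 and SLBP, which binds the stem-loop of histone mRNA, at 6026 ± 502. The last pair differed by less than their spread. At the other end stood POLA1, the catalytic subunit of DNA polymerase alpha, at 144 ± 6.7, E2F2 at 182 ± 10.9 and E2F7 at 187 ± 38, the last pair again within their spread. Among the E2F factors E2F1 was highest at 1061 ± 102 normalized counts per kb, E2F3 was at 493 ± 52.0 and E2F8 at 388 ± 50.3. Lengths came from GENCODE transcripts paired with the RefSeq accessions and are approximate.

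With HBO1 knocked down, the estimates for this set lay close to control. No gene of the 38 passed an adjusted p of 0.05 in limma (0.00659% of 15173 tested genes passed, KAT7 being the only one), nor with the replicate number as a block (0.125% of all genes passed). The median log2 fold change was −0.0075, beside 0.00013 over all tested genes, with 18 estimates above 0 and 20 below. At an unadjusted p under 0.05 the count was 2 of 38 (5.26%), against 3.55% of all genes, and with the block 4 of 38 (10.5%), against 11.3%. All of these were lower in shHBO1, where 1.81% and 5.9% of all genes were lower at that p. With 2 and 4 genes, nothing particular to the set is read from these counts. All 38 of the 95% confidence intervals lay within 1 log2 unit of 0, and 36 within 0.5. The lowest bound was −0.51, for POLE2, and the highest 0.52, for RRM2.

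**Figure D1:**
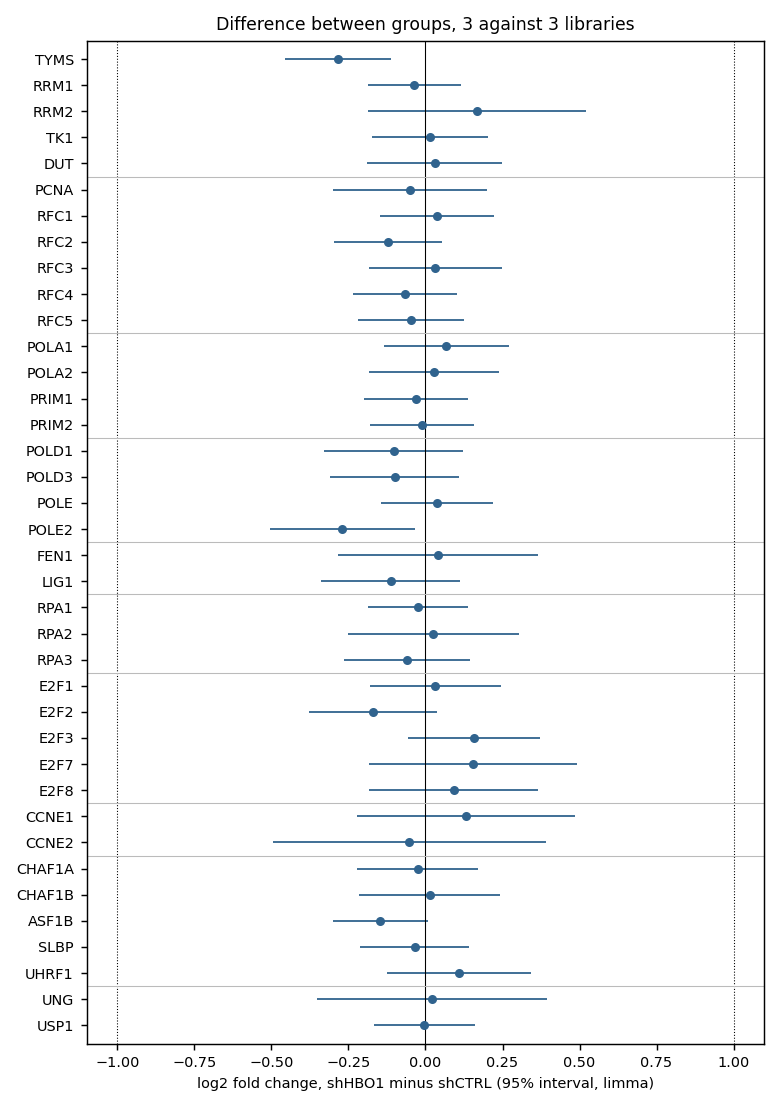
Log2 fold change (x axis, shHBO1 minus shCTRL, on the log2(normalized count + 1) scale) of each of the 38 genes (y axis, by role, grey lines between roles), as limma estimates (points) with 95% confidence intervals (bars), n = 3 libraries per group. Intervals of 36 genes stay within 0.5 of 0, and those of TYMS and POLE2 lie below 0 before any adjustment for the number of genes.

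Nucleotide supply is the step where the lowest value stood. TYMS makes thymidylate from deoxyuridylate and is the target of fluoropyrimidine drugs. It had 18147, 19657 and 19939 normalized counts in shCTRL and 15845, 16714 and 14867 in shHBO1. All 3 knockdown values were below all 3 controls, and the mean was 82.1% of control. The log2 fold change was −0.28 (SE 0.074, 95% interval −0.46 to −0.11, unadjusted p = 0.00531) and did not pass over all genes (limma adjusted p = 1.0, blocked adjusted p = 0.182). Blocked DESeq2 on recovered reads did call it (adjusted p = 0.0075), the only member among the 0.975% of genes it called. Within the numbered pairs TYMS was at 87.3%, 85.0% and 74.6% of its control. TYMS overlaps ENOSF1, whose mRNA lies partly antisense to it, and no source says whether counting used strand. ENOSF1 was at 358 ± 2.93 in shCTRL and 328 ± 48.2 in shHBO1, beside TYMS means of 19247 ± 964 and 15808 ± 924, and the part of antisense reads in the TYMS values was not tested. RRM2, PCNA, RFC5, POLA1, PRIM2, RPA3, E2F2, CCNE2, CHAF1A and UHRF1 also overlap another gene, coding or noncoding, and reads shared with processed pseudogenes cannot be told apart from those of the parent gene.

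The other supply genes had estimates nearer 0 or above it. RRM1 and RRM2 are the large and small subunits of ribonucleotide reductase, which turns ribonucleotides into deoxyribonucleotides. RRM2, the subunit that rises in S phase, had 10791, 11823 and 16280 normalized counts in shCTRL and 12970, 14391 and 15725 in shHBO1, with a log2 fold change of 0.17 (SE 0.15). Its control values spanned the knockdown values. RRM1 was at 6344 ± 264 and 6185 ± 138, with a log2 fold change of −0.036. TK1, which phosphorylates thymidine, had 0.014 and DUT, the dUTPase that keeps uracil out of DNA and feeds TYMS with its substrate, had 0.031.

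Among the polymerase subunits POLE2 had the lowest value. POLE2, the second subunit of the leading-strand polymerase epsilon, had 752, 834 and 826 normalized counts in shCTRL and 677, 615 and 708 in shHBO1. The groups did not overlap, at 82.9% of control and a log2 fold change of −0.27 (SE 0.10, unadjusted p = 0.0295, limma adjusted p = 1.0, blocked adjusted p = 0.315). Its catalytic partner POLE was at 3673 ± 144 and 3773 ± 281, with a log2 fold change of 0.037 (95% interval −0.15 to 0.22). The lagging-strand polymerase delta subunits POLD1 (catalytic) and POLD3 (accessory) both had −0.10. Polymerase alpha and primase, which lay down primers, had 0.068 for POLA1, 0.028 for POLA2, −0.030 for PRIM1 and −0.012 for PRIM2. POLA1 had 768, 759 and 826 normalized counts in shCTRL and 832, 816 and 817 in shHBO1, a narrow spread in which the highest control lay among the knockdown values. In PRIM2 the 6 libraries ran only from 1614 to 1721.

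The clamp, its loader, and the enzymes that finish Okazaki fragments overlapped between groups in every member. PCNA, the ring that tethers polymerases, had 9035, 10606 and 11821 normalized counts in shCTRL and 9330, 10269 and 10643 in shHBO1, and its log2 fold change was −0.051 (SE 0.11). The 5 subunits of replication factor C, which opens that ring, had −0.12 (RFC2), −0.066 (RFC4), −0.047 (RFC5), 0.031 (RFC3) and 0.038 (RFC1). FEN1, the nuclease that trims flaps, had 4409, 4851 and 6450 in shCTRL and 5010, 5175 and 5777 in shHBO1. Its knockdown values all lay within the control range. LIG1, the ligase that seals the nicks, had −0.11 and was lower in shHBO1 in each of the 3 pairs, at 93.0%, 91.6% and 92.8%. The single-strand binding subunits RPA1, RPA2 and RPA3 had −0.024, 0.025 and −0.060. RPA2 had 2676, 2975 and 3578 normalized counts in shCTRL and 2886, 3049 and 3412 in shHBO1, all of the latter within the control range.

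Among the regulators, E2F2 was the only factor whose groups did not overlap. It had 881, 979 and 978 normalized counts in shCTRL and 819, 841 and 856 in shHBO1, 88.7% of control, with a log2 fold change of −0.17 (SE 0.090, limma unadjusted p = 0.0928, blocked unadjusted p = 0.0497). E2F1 had 0.032 (95% interval −0.18 to 0.24), with 2503, 2512 and 2951 normalized counts in shCTRL and 2745, 2551 and 2833 in shHBO1. E2F3 (0.16), E2F7 (0.15) and E2F8 (0.091) had estimates above 0. E2F8 was the only one of the 38 to be higher in shHBO1 in all 3 pairs, at 110%, 103% and 106% of control, against 15.3% of all tested genes. The E cyclins, which activate a kinase that takes part in E2F release, had 0.13 for CCNE1 and −0.052 for CCNE2.

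Chromatin assembly genes hold the last of the 4 genes with separate groups. ASF1B, a histone chaperone of S phase, had 5704, 5853 and 6144 normalized counts in shCTRL and 5202, 5250 and 5538 in shHBO1. It stood at 91.2%, 89.7% and 90.1% of control in the 3 pairs, the narrowest range of these 4 genes, with a log2 fold change of −0.15 (SE 0.066, limma unadjusted p = 0.0597, blocked unadjusted p = 0.0231, blocked adjusted p = 0.357). The large subunits of the CAF-1 chaperone, CHAF1A and CHAF1B, had −0.026 and 0.014, and SLBP had −0.035. UHRF1, which brings the maintenance methyltransferase to new DNA, had 0.11. UNG, the glycosylase that removes uracil, had 0.021 and USP1, which takes ubiquitin off PCNA, had −0.0032. TYMS, POLE2, E2F2 and ASF1B, 4 of 38, had groups that did not overlap, all lower in shHBO1, against 8.93% of all tested genes in either direction and 4.44% in that direction.

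**Figure D2:**
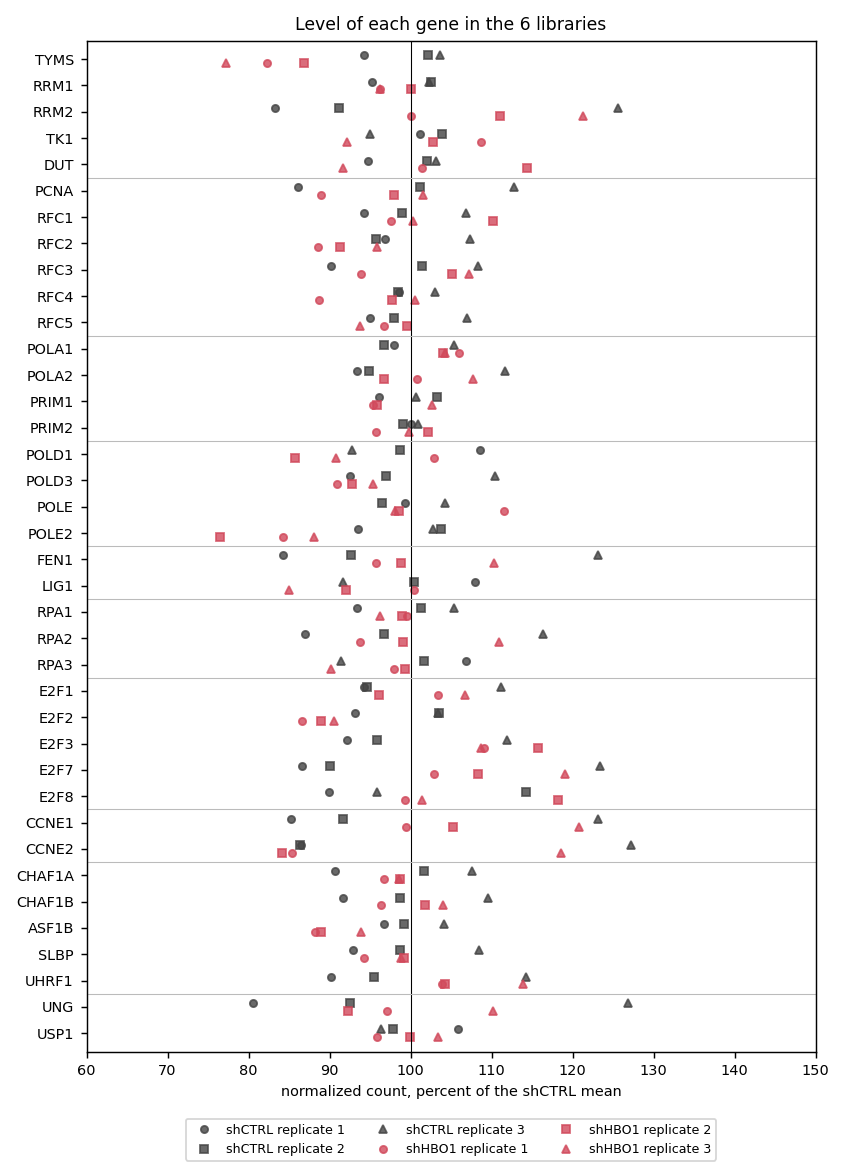
Normalized count of each of the 38 genes (y axis, by role) in each library, as percent of the gene's shCTRL mean (x axis). Grey marks are shCTRL, red marks shHBO1, and circles, squares and triangles are replicates 1, 2 and 3. The grey triangle is the rightmost mark in 22 genes and the grey circle the leftmost in 19, and in TYMS, POLE2, E2F2 and ASF1B all red marks lie left of all grey ones.

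The control libraries bracketed the knockdown libraries. Library shCTRL 3 held the highest value of the 6 in 22 of the 38 genes, where it did so in 24.8% of all tested genes. Library shCTRL 1 held the lowest in 19 of 38, against 23.8% of all genes. Averaged over the set, the log2 level was 11.54, 11.61 and 11.74 for the shCTRL libraries and 11.59, 11.62 and 11.65 for the shHBO1 libraries. The shHBO1 libraries thus lay inside the control range. The median difference varied by pair, at 0.054, 0.015 and −0.081 on the log2 scale in pairs 1, 2 and 3. Its sign in pair 3 was opposite to that in the others. In pair 3, 35 of the 38 genes were lower in shHBO1, against 52.2% of all tested genes, where pair 1 had 14 and pair 2 had 18. The genes RRM2, E2F3, E2F7 and CCNE1 show it plainly. Their shHBO1 values in pairs 1 and 2 were at 120% and 122%, 118% and 121%, 119% and 120%, and 117% and 115% of control, and in pair 3 at 96.6%, 97.1%, 96.5% and 98.0%. Of the 38, 17 were higher in pairs 1 and 2 and lower in pair 3, a pattern of 19.6% of all genes. Genes lower in all 3 pairs numbered 11 of 38, against 17.1% of all tested genes. A lower pair 3 was not particular to the set. The pair 3 median was −0.17 in 26 other nucleotide metabolism genes, −0.13 in 28 other E2F targets and −0.10 in 20 housekeeping genes. There pairs 1 and 2 had 0.0066 and 0.016, 0.063 and 0.0089, and 0.038 and 0.026. In pair 3 other clamp loader and fork genes had −0.036 and other polymerase subunits −0.0054. Other E2F, DP and pocket protein genes had 0.028 and G2/M genes 0.034.

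Leaving out both number 3 libraries moved the counts. Without the block 0 of the 38 passed over all genes, and 6 (15.8%) had an unadjusted p under 0.05, against 14.3% of all tested genes. With the block 6 passed, TYMS (−0.21) and POLE2 (−0.29) lower and RRM2 (0.27), E2F3 (0.26), E2F7 (0.26) and UHRF1 (0.16) higher. That fit rests on 2 pairs with 1 residual degree of freedom, and 14.2% of all genes passed in it, so 6 of 38 is near its background. The blocked fit without shCTRL replicate 3 alone, or without shHBO1 replicate 3 alone, rests on the same 2 pairs. Each called the same 6 genes, where 14.1% of all genes passed.

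Replicate numbers were compared next, by a limma F test over all 3 numbers at once. In the limma fit with treatment and number, CCNE2 and RRM2 differed between numbers over all genes, 2 of 38 (5.26%) where 9.68% of all tested genes did, and 4.84% with number 3 above number 1 as here. CCNE2, an E cyclin, had 1122, 1121 and 1651 normalized counts in shCTRL and 1108, 1093 and 1539 in shHBO1. Its number 3 libraries were the highest in each group and the others nearly equal, a log2 difference of 0.51 between numbers 3 and 1. The limma F test over the 3 numbers gave an adjusted p of 0.0121. For RRM2, whose values are given above, the difference between numbers 3 and 1 was 0.44 (limma F test over the 3 numbers, adjusted p = 0.0469). Both calls ended without shCTRL replicate 2 or shHBO1 replicate 2, and that of RRM2 also without shCTRL replicate 1. The count was 4 of 38 (10.5%, against 12.6% of all tested genes) without shHBO1 replicate 1 and 9 (23.7%, against 20.2%) without shCTRL replicate 3. It was 17 (44.7%, against 38.8%) without shHBO1 replicate 3, so these counts moved with those of all genes. At an unadjusted p under 0.05, 14 of 38 differed, against 30.1% of all genes. UNG (0.42), CCNE1 (0.41), FEN1 (0.38), E2F7 (0.36), RPA2 (0.33) and PCNA (0.29) had the next highest differences between numbers 3 and 1. UNG had 5008, 5753 and 7881 in shCTRL and 6037, 5737 and 6847 in shHBO1.

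Most of the set leaned the same way, but not in every role. In 31 of the 38 genes number 3 was estimated above number 1, against 50.5% of all tested genes, and the median difference was 0.12 on the log2 scale. By group it was 0.17 in shCTRL and 0.066 in shHBO1. It was above 0 for all 6 clamp and loader genes, all 5 E2F factors, all 5 chromatin genes, all 4 alpha-primase genes and both E cyclins. It was above 0 for 3 of 5 nucleotide supply genes, 2 of 4 delta and epsilon subunits, 2 of 3 RPA subunits, 1 of 2 Okazaki genes and UNG but not USP1. LIG1 (−0.24), POLD1 (−0.20), RPA3 (−0.17) and TK1 (−0.16) stood furthest on the other side. Of all tested genes 9.68% were called between numbers, 734 of 15173 of them with number 3 below number 1. The 28 other E2F targets, among them the MCM helicase and licensing genes, had a median of 0.20, with 25 of 28 above 0. Of them SLC29A1, a nucleoside transporter, was called (3.57%). The 30 G2/M and mitotic genes had a median of −0.15, with 2 of 30 above 0 and 8 called (26.7%), all lower in number 3 than in number 1. Their promoters also differ in letters from those of the set. The CHR word TTTGAA (or TTCAAA), an element of mitotic genes, was present in 17 of 24 G2/M genes with a window. It was present in 6 of 33 of the set (18.2%) and in 18.2% of all genes. An E2F word was present in 3 of 24 G2/M genes, in 14 of 33 of the set (42.4%) and in 3.99% of all genes. The called G2/M genes were CCNB1, PLK1, AURKA, CENPF, TPX2, NUSAP1, PRC1 and HMMR. Their calls rest on number 2 as well. In them the difference between numbers 2 and 1 ran from −0.099 (HMMR) to 0.21 (AURKA). Its median was 0.11 over the 30 G2/M genes and 0.059 over the 38. Cell-type markers also differed between the numbers. The 12 ovarian epithelial markers had a median of −0.34 between numbers 3 and 1, with 1 of 12 above 0 and 6 called (50%), all lower. The 7 tested fibroblast and endothelial markers had −0.45, with 2 of 7 above 0 and 1 called (14.3%). Of 8 tested nuclear-retained RNAs, listed with RNA quality in mind, 4 were above 0, with a median of 0.052. Of them 2 (25%) were called, MALAT1 (−1.01) and NEAT1 (−0.90). Such RNAs do not measure RNA integrity directly. The part of these markers in the result was not tested.

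**Figure D3:**
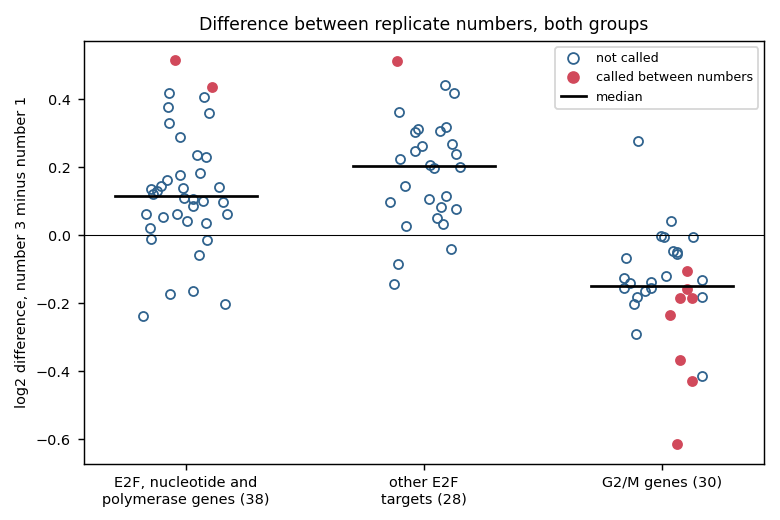
Log2 difference between replicate numbers 3 and 1 (y axis), estimated over both groups by limma, for the 38 genes, 28 other E2F targets and 30 G2/M genes (x axis). Each point is a gene, filled red where the limma F test over the 3 numbers had an adjusted p under 0.05. Black lines are medians: 0.12, 0.20 and −0.15.

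The rest of the pathway was examined through 6 further lists. Of 126 tested genes in them, 0 passed over all genes with or without the block, 1 had an unadjusted p under 0.05 (0.794%, against 3.55% of all tested genes), and the median log2 fold change was −0.022. That gene was RNASEH2A, a subunit of the nuclease that removes RNA from DNA, at 4816 ± 157 in shCTRL and 4328 ± 144 in shHBO1 (log2 fold change −0.15, SE 0.066, limma unadjusted p = 0.0493). With the block more genes had an unadjusted p under 0.05, against 11.3% of all tested genes. They were 4 of 26 other nucleotide metabolism genes (15.4%), 2 of 15 other clamp loader and fork genes (13.3%) and 1 of 30 G2/M genes (3.33%). The remaining lists had 0. Of 26 other nucleotide metabolism genes, 21 estimates were below 0 and 5 above, with a median of −0.036. The p53-responsive reductase subunit RRM2B had −0.44 (SE 0.24), at 1044 ± 329 and 742 ± 81.3. CTPS2, a CTP synthase, had −0.18, and PAICS, of purine synthesis, had −0.13. The 17 other polymerase subunits had a median of −0.065, with POLM at −0.26, the theta polymerase POLQ at 0.16 and POLE4, an accessory epsilon subunit, at 0.14. The 15 other clamp loader and fork genes had −0.0039, with RNASEH2C at 0.20 and ATAD5, which unloads PCNA, at 0.14. The 14 other E2F, DP and pocket protein genes had −0.027, with the chromatin subunit RBBP4 at −0.11, LIN9 at 0.080 and the pocket protein RBL2 at −0.062. The 28 other E2F targets had −0.025, with HELLS, a chromatin remodeller, at 0.15, CDC45, a helicase subunit, at −0.11 and the licensing factor CDT1 at −0.092. The 30 G2/M genes had 0.012, with the survival factor BIRC5 at 0.18, UBE2C at −0.12 and the kinetochore motor CENPE at 0.10. Between replicate numbers, SHMT1, POLE3, POLH and DSCC1 of these lists also differed over all genes (limma F test over the 3 numbers, adjusted p = 0.0305, 0.0253, 0.0327 and 0.0278). Their differences between numbers 3 and 1 were −0.39, 0.49, −0.52 and 0.47. The E2F target list shares 3 genes with other lists.

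Transcript makeup was examined where forms differ in role. UNG and DUT each encode a nuclear and a mitochondrial enzyme by separate first exons, and E2F3 has a long and a short form. Exact permutation tests on 7 transcript shares gave p from 0.4 to 0.7 (0.7 for each after Benjamini-Hochberg adjustment), where 3 against 3 cannot give less than 0.1. The shares of E2F3 mirror each other, as do those of UNG, so within each gene the same test was counted more than once. For UNG, NM_080911, the nuclear form, held 83.8%, 87.1% and 88.2% of the gene's normalized count in shCTRL and 86.9%, 90.0% and 85.3% in shHBO1. For DUT, the nuclear form NM_001948 held 71.0%, 71.5% and 69.2% in shCTRL and 77.7%, 78.7% and 67.8% in shHBO1. The mitochondrial form NM_001025248 held 21.5%, 22.8% and 13.9%, and 19.6%, 17.3% and 26.9%. The 2 DUT shares separated the groups in replicates 1 and 2, and not with replicate 3. They are parts of the same gene total and so not independent. Fewer libraries also separate more readily. Without both number 3 libraries the levels of 46.6% of all genes separated the groups. For E2F3, NM_001243076, the shorter form, held 62.9%, 60.8% and 63.0% in shCTRL and 53.9%, 62.8% and 61.7% in shHBO1, where replicate 1 alone was low. For PCNA, NM_182649 held 98.2% ± 0.632 and 98.7% ± 0.645. No source says how reads were divided between transcripts, a step on which these shares depend.

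**Figure D4:**
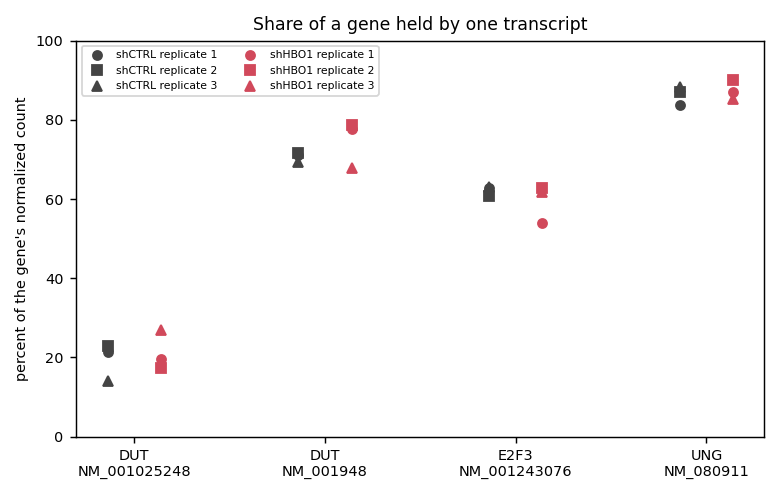
Share of a gene's normalized count held by 1 transcript (y axis, percent) for 2 DUT, 1 E2F3 and 1 UNG transcript (x axis) in each library. Grey marks are shCTRL, red marks shHBO1, and circles, squares and triangles are replicates 1, 2 and 3. The groups overlap in all 4 transcripts, with shHBO1 replicate 3 away from its group in DUT.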

How the data were processed

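RNA-seq was measured in 6 libraries of UWB1.289 cells, 3 shCTRL and 3 shHBO1. The authors deposited 1 table of normalized signal per RefSeq transcript (58215 rows). The submitters' processing notes list Bowtie 1.2.1.1, SAMtools, DESeq2 and hg19 but give them no role, and no source describes read assignment or scaling. Within a library, dividing by the smallest step gave whole reads for 100% of values (tolerance 0.01 read).

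Gene names came from RefSeq (GRCh38.p14) for 57191 accessions and GENCODE 29 for 646. The 378 unnamed ones, at most 0.0977% of a library, were dropped. Because the builds differ, only promoter windows carry coordinates. Transcripts were summed per gene. A read counted for several transcripts would enter more than once, though 0 of the 38 genes had a transcript repeating another's reads.

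limma 3.58.1 (limma-trend, R 4.3.3) tested log2(normalized count + 1), the scale of all fold changes, for the 15173 genes whose mean reached 10. P-values were adjusted by Benjamini-Hochberg and called under 0.05. Same-numbered libraries correlated above 0.1 (0.32, 0.19, 0.48), so the numbers were taken as pairs. The labels name no shared day, and shCTRL 2 with shHBO1 1 also reached 0.21. edgeR 4.0.16 and DESeq2 1.42.0 on recovered reads, other scalings, filters, pseudocounts and left-out libraries were alternatives. Fits were tested on simulated data. Values per library are given for members with an unadjusted p under 0.05 (with or without the block) or called between numbers and for at least 1 member of each role. In the other pathway lists the 3 genes with the smallest p and those called are named. Marker genes and ENOSF1 were chosen after their values were seen. The 38 genes, lists, tests and this rule were chosen with earlier results of these data known.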

Additional observations from a re-analysis of the deposited data

How the results depend on the processing

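Counts depended on the replicate block and on single libraries, mostly together with those of all genes, while KAT7 passed in every setting run. Over all genes 1 passed, and 19 with the replicate block, 19 with edgeR and the block, 19 with DESeq2, 148 with DESeq2 and the block, and 2160 without both number 3 libraries with the block. Blocked fits with 1 library left out, like that last setting chosen after seeing the data, gave 23 without shCTRL replicate 1, 22 without shHBO1 replicate 1, 1 without either replicate 2, 2134 without shCTRL replicate 3 and 2144 without shHBO1 replicate 3. Of the 38 genes 0 passed, except 1 (TYMS) in blocked DESeq2 and the same 6 in the 3 blocked fits that left out a number 3 library or both. At an unadjusted p under 0.05 there were 2, and 4 in the replicate block, in blocked edgeR and in blocked DESeq2 (6.92% of all genes). There were 6 without both number 3 libraries (14.3% of all genes) and 12 with the block as well (28.2%). With a library left out there were 1 to 6 (2.04 to 15% of all genes), or 1 to 12 with the block (4.69 to 28.2%). Groups did not overlap in 4 genes, in 18 without both number 3 libraries (46.6% of all genes), and in 4 to 14 with a library left out (13.9 to 36.3%); fewer libraries separate more readily. Between replicate numbers 2 genes passed, 6 with blocked DESeq2 (13% of all genes), 6 with quantile normalization (11.9%), 1 with no filter on low values (5.15%), 0 with only the most abundant transcript of each gene (0.087%), and 0 to 17 with a library left out (3.12 to 38.8%). Transcript shares that separated the groups numbered 0, and 2 without both number 3 libraries. For each of these the cause was not tested. With all 6 libraries, the replicate block changed no call of a member in limma. Over 19 planned settings, 46 of 722 estimates of the 38 genes had another sign than in the limma fit of all 6 libraries without the block. In that fit the genes concerned had log2 fold changes of up to 0.052 in size. This bounds the original estimates and not the reversed ones. The difference between numbers 3 and 1 has no value without both number 3 libraries.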
